A study of Mus musculus with 6 samples.

Results

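The 10 genes described here encode the nitric oxide synthases Nos3 and Nos2, their regulators Cav1, Ddah1 and Ddah2, and the cGMP receptor route of Gucy1a3, Gucy1a2, Gucy1b3, Prkg1 and Pde5a. They were taken by symbol, 10 of the 53735 genes in the deposited table, and all 10 passed the filter for testing, a mean of at least 10 normalized counts. RNA was sequenced from lung endothelial cells of mice labelled wild type (2 libraries) or knockout (4 libraries) for Zmpste24, the protease that finishes the maturation of lamin A; mice without it are used as a model of progeria, and the series title names endothelial dysfunction in that disease. Lung cells of both genotypes were sorted on magnetic beads against CD31 and ICAM2, kept as an unpassaged primary culture on gelatin until confluent, and left untreated. The submitters describe the cells as nearly pure endothelium. Age, sex, strain and the deleted part of the gene are not stated in the labels. Nor do the labels say whether every library had its own animal, and p-values here measure library-to-library spread that could be technical. The mice came from 2 cohorts, per the labels, with no library assigned to either.

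Nitric oxide is made from arginine by nitric oxide synthases. In vessels the endothelial enzyme, encoded by Nos3, makes it continuously, whereas the inducible enzyme, encoded by Nos2, appears mainly in activated macrophages and inflamed tissue. The gas diffuses into neighbouring smooth muscle and pericytes, where it binds the haem of soluble guanylyl cyclase, a dimer of an alpha and a beta subunit, and the cGMP that is formed activates protein kinase G and relaxes the cell. Phosphodiesterase 5 ends the signal by hydrolysing cGMP.

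Of the 10 genes, 3 had higher normalized counts in each of the 4 knockout-labelled libraries than in both wild type libraries. These were Gucy1a3 and Gucy1b3, the genes of the alpha1 and beta1 subunits that form the main nitric oxide receptor, and Prkg1, the gene of cGMP-dependent protein kinase 1. Over all 15229 tested genes, 2.36% showed such a gap with the knockout-labelled libraries higher, and no member showed the opposite gap, which 2.32% of genes did. Gucy1a3 and Gucy1b3 lie next to each other on chromosome 3, on the minus strand and 17.7 kb apart (GRCm38; Gucy1b3, annotated as Gucy1b1, at 82032006 to 82074689, and Gucy1a3, annotated as Gucy1a1, at 82092427 to 82145789). Prkg1 lies on chromosome 19 (30564489 to 31765033, minus strand). The sequences just before their start sites are shown because these are the 3 members whose counts separated the genotypes. They come from RefSeq on GRCm38.p6, on the minus strand and read 5′ to 3′, and each is the longest run in the 250 bases before the start site that GENCODE M21 places in no exon. For Gucy1a3 this run ends 140 bases before its start site. Capitals mark every match to CCAAT (or ATTGG on the other strand) and to the GC box GGGCGG (or CCGCCC).
Gucy1b3 (chr3:82074712-82074961): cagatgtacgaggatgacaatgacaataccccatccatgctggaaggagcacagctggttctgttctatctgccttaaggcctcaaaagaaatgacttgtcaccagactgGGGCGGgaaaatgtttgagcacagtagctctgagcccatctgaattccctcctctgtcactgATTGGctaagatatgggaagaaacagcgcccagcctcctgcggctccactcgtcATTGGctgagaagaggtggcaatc
Gucy1a3 (chr3:82145790-82145900): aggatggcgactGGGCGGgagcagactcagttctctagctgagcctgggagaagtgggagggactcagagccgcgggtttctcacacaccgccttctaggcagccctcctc
Prkg1 (chr19:31765034-31765283): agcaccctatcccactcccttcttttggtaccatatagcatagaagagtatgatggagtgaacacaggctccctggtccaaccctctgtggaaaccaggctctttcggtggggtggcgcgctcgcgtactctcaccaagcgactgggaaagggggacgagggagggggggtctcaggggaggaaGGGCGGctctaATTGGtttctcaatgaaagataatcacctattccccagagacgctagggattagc
Prkg1 and Gucy1a3 each have a second start site in the same RefSeq table, which is not shown. The Gucy1b3 stretch held 2 CCAAT matches and 1 GC box, the Prkg1 stretch 1 of each, and the Gucy1a3 stretch 1 GC box and 0 CCAAT matches. Neither the TATA box TATAAA (or TTTATA) nor the AP-1 site TGANTCA, which reads alike on the other strand, was found in these stretches. Among 32851 windows of 250 bases before start sites of all genes in the table, 33.8% held CCAAT, 32.7% the GC box, 12.4% the TATA box and 6.75% the AP-1 site. The stretch at the second Gucy1a3 start site held 0 matches to any of the 4 motifs. The one at the second Prkg1 start site held 1 GC box and 0 matches to CCAAT, the TATA box or the AP-1 site. Of the 10 genes, 8 were in the RefSeq table; Nos3 and Nos2 were not matched.

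The 6 libraries fell into 2 sets that cut across genotype. Wild type 1 and knockout 1 form the first set, and wild type 2 with knockout 2, 3 and 4 the second, by the sign of the first principal component over the tested genes (77.3% of the variance). Libraries held 32699024 to 45613685 reads. Zmpste24 itself averaged 4826 ± 959 (SD, n = 2) for wild type libraries and 4041 ± 696 (SD, n = 4) for those labelled knockout, a log2 difference of -0.26 ± 0.20 (SE), and as the deleted part is not named, this count does not check the labels. The 12 endothelial markers, led by Cdh5 and Pecam1, were all present, with a summed level of 59298 to 182311 in wild type and 39731 to 109362 in knockout-labelled libraries. The 6 lymphatic endothelial markers, led by Lyve1 and Mmrn1, summed to 54820 to 76205 in wild type and 23983 to 54665 in the others. Of these 6, 5 were below the own wild type in all 4 knockout-labelled libraries (10.8% of all tested genes), with list medians of -0.50, -1.11, -1.41 and -1.53 (log2; knockout 1, 2, 3, 4). Fibroblast markers summed to 401603 to 471002, above the endothelial sum in all 6 libraries. Collagen genes carried most of that sum, led by Col1a2 (140619 to 184725) and Col1a1 (78890 to 173437). Pdgfra of the same list had 5842 and 3946 counts in wild type 1 and knockout 1, and 34290 to 69228 in the second set. These sums therefore do not rank the cell types by their share of the culture. Markers of smooth muscle and pericytes, macrophages and mesothelium (Msln and Lrrn4; sums of 8440 to 60852) were present too, whereas Sftpb and Sftpc of the alveolar epithelium reached at most 280 and 120 counts and the T cell marker Cd3e was at 0 in all 6 libraries. In such bulk samples, fewer cells of a type and less RNA per cell cannot be told apart. Results are given from limma with genotype as the sole term and, because of the 2 sets, from fits with the library set as a further term.

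**Figure D1:**
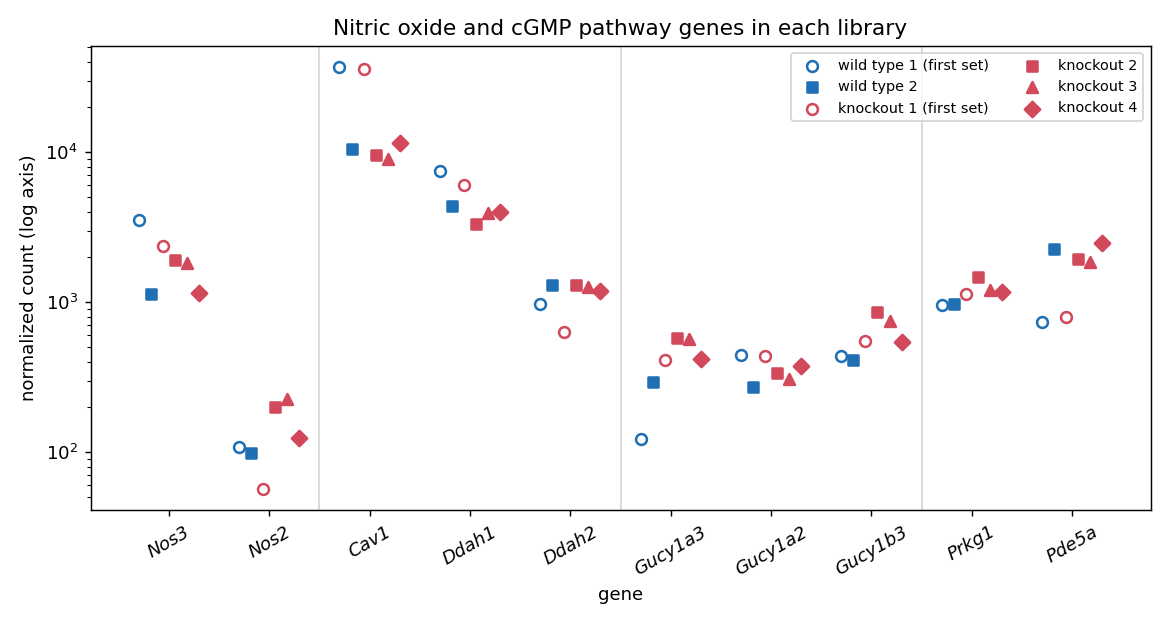
Normalized count on a log axis of each of the 10 genes in each of the 6 libraries, by role; blue is wild type, red knockout-labelled, and open circles are the first library set. All red points of Gucy1a3, Gucy1b3 and Prkg1 sit above the blue ones, while Cav1 and Pde5a separate by library set.

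The nitric oxide receptor gave the largest difference among the members. Gucy1a3, the alpha1 subunit gene, stood at 122 counts in wild type 1 and 291 in wild type 2. The knockout-labelled libraries 1, 2, 3 and 4 held 414, 572, 569 and 419. The lowest knockout-labelled library was thus above the higher of the wild type libraries, and the wild type libraries differed from each other more than any pair of knockout-labelled ones. Against the wild type of its own set, knockout 1 was 3.38-fold higher and knockout 2, 3 and 4 were 1.96-fold, 1.95-fold and 1.44-fold higher. These counts rest on 117 to 664 reads per library. The log2 difference was 1.36 ± 0.38 (SE, 95% interval 0.44 to 2.28) with genotype alone, and limma's adjusted p was 1.00. Adding the library set gave 1.19 ± 0.26 (SE, limma adjusted p = 0.999).

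When DESeq2 was given the library set as a term, it called Gucy1a3 (log2 1.18 ± 0.30, SE; adjusted p = 0.0297; higher in 4 of 4 libraries). It was the only member called by limma, edgeR or DESeq2, with or without that term. This fit called 0.328% of all tested genes, and 0.0722% as higher, against 1 of the 10 members. Limma called 0 members with genotype alone (0.00657% of all tested genes) and 2 at an unadjusted p under 0.05 (0.939%). When the set was added, limma called 0 members (0.00657%) and 4 reached an unadjusted p under 0.05 (3.51%), namely Gucy1a3, Gucy1b3, Prkg1 and Ddah1. EdgeR called 0 members with genotype alone (0.00657%) and 0 with the set added (0.0131%), and 3 (0.998%) and 4 (3.51%) reached an unadjusted p under 0.05. DESeq2 with genotype alone called 0 members (0.046%), with 3 at an unadjusted p under 0.05 (1.43%), and 4 (3.66%) with the set added. That DESeq2 fit lost the call of Gucy1a3 without knockout 2 (log2 1.17, adjusted p = 0.153) or knockout 3 (1.17, 0.467). The call was kept without knockout 4 (1.29, adjusted p = 0.00221). Without wild type 1 or knockout 1, the fit compared only the second set, with wild type 2 as its wild type (log2 0.83 for both). Without wild type 2, it compared only knockout 1 with wild type 1 (log2 1.76). These 3 fits each rest on 1 wild type library and are given as effect sizes only. The DESeq2 fit that called Gucy1a3 also called 3 of the endothelial and lymphatic endothelial markers, all lower. These were Vwf, the von Willebrand factor gene (log2 -0.82, adjusted p = 0.00123), Flt4, a lymphatic growth factor receptor gene (-1.005, 0.00809), and Reln (-1.36, 0.0109). Their calls were lost without knockout 3 (-0.82, -0.98 and -1.27, DESeq2 adjusted p = 0.1201, 0.1398 and 0.1082). They were kept without knockout 2 or knockout 4. Knockout 1 against wild type 1, the comparison left without wild type 2, gave -0.54, -0.64 and -0.56. The second set, left without wild type 1 or knockout 1, gave -1.0, -1.24 and -1.84. Limma and edgeR called 0 of these markers, and their part in the differences of the members was not tested.

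Gucy1b3, the gene of the beta1 subunit that carries the haem, stood at 438 and 410 counts (wild type 1, 2) and at 548, 864, 748 and 541 (knockout 1, 2, 3, 4). The groups did not overlap, the 2 wild type libraries were close to each other, and knockout 2 and 3 were the highest. Wild type averaged 424 ± 19.4 (SD, n = 2) against 675 ± 158 (SD, n = 4), and limma gave a log2 difference of 0.64 ± 0.24 with genotype alone and 0.60 ± 0.23 with the set as a term (SE, limma adjusted p = 1.00 and 0.999). Neither fit called it. Gucy1a2, the alternative alpha2 subunit gene (chromosome 9, 3532778 to 3894736), stood at 445 and 271 counts (wild type 1, 2) and at 436, 338, 305 and 375 (knockout 1, 2, 3, 4). Its groups overlapped and its log2 difference was 0.05 ± 0.26 (SE, 95% interval -0.59 to 0.70) with genotype alone and 0.18 ± 0.15 (SE) with the set as a term. Gucy1b2, a further beta subunit gene, had at most 1.03 counts in any library and was not tested.

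Because the subunits pair as alpha with beta, their levels were also set side by side per exonic kilobase. Gucy1b3 was the most abundant subunit in all 6 libraries, at 104 to 220 normalized counts per kb. The 3 subunit genes together reached 196 and 187 per kb (wild type 1, 2), and 265, 353, 318 and 254 (knockout 1, 2, 3, 4). Of the alpha transcripts, alpha1 made up 20.8% in wild type 1, 50.7% in wild type 2, and 47.6%, 61.8%, 64.0% and 51.6% over knockout 1 to 4. The alpha1 share was thus higher in each knockout-labelled library than in the wild type of its set, but knockout 1 lay below wild type 2, so the groups overlap. Both alpha genes together stood at 0.758 and 0.790 of beta1 in wild type and at 0.604 to 0.894 of beta1 in the knockout-labelled libraries. These shares use the total exonic length in GENCODE M21, not the isoforms that these cells use, and were not tested.

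**Figure D2:**
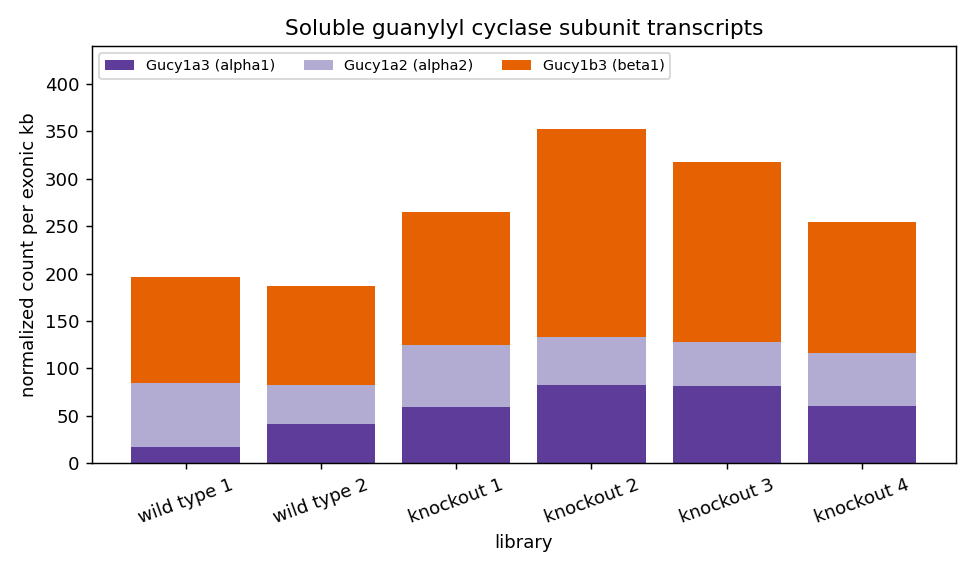
Normalized counts per exonic kb of the soluble guanylyl cyclase subunit genes in each library, stacked. The total is 187 and 196 in the wild type libraries and 254 to 353 in the knockout-labelled ones, and the Gucy1a3 part is smallest in wild type 1.

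Prkg1, the kinase that carries the cGMP signal onward, was the third gene whose groups did not overlap. It stood at 959 and 971 counts (wild type 1, 2) and at 1129, 1474, 1196 and 1163 (knockout 1, 2, 3, 4). Wild type libraries agreed closely, and knockout 2 was the highest of the others. The log2 difference was 0.35 ± 0.15 (SE, 95% interval -0.004 to 0.71) with genotype alone and 0.33 ± 0.13 (SE) with the set as a term, and no fit called it. Pde5a (chromosome 3, 122728947 to 122859374, plus strand), which encodes the phosphodiesterase that sildenafil blocks, followed the library set: it had 737 and 801 counts in wild type 1 and knockout 1, and 2267, 1952, 1843 and 2497 in wild type 2 and knockout 2, 3 and 4. Within each set the genotypes differed little, with ratios to the own wild type of 1.09 in knockout 1 and of 0.813 to 1.10 in knockout 2, 3 and 4. Its log2 difference was 0.34 ± 0.60 with genotype alone and -0.03 ± 0.15 with the set as a term (SE), so its sign depended on the fit.

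The receptor and kinase genes are typical of smooth muscle and pericytes, so the markers of these cells were read beside them. All 13 markers on that list were tested, with a summed level of 80216 and 251961 in wild type and 72176 to 223959 in knockout-labelled libraries. Their median log2 difference from the own wild type was -0.61, 0.73, 0.51 and -0.05 (knockout 1, 2, 3, 4), beside 1.75, 0.97, 0.96 and 0.52 for Gucy1a3 and 0.33, 1.07, 0.86 and 0.40 for Gucy1b3. Single markers did not all follow these medians. In knockout 2 and 3, 12 and 11 of the 13 markers were above wild type 2; Cnn1 was below it in both (log2 -0.90 and -0.50). In knockout 1, 4 of the 13 were above wild type 1 (Des by 0.88, Rgs5 by 0.71, Myh11 by 0.13 and Tagln by 0.11) and 9 below, and in knockout 4, 5 were above wild type 2. Of the 13, 2 were above the own wild type in all 4 knockout-labelled libraries, Rgs5 and Myh11. This held for 10.1% of all tested genes and for 3 of the 10 members, Gucy1a3, Gucy1b3 and Prkg1. The opposite held for 1 of the 13, Cnn1 (log2 -0.61, -0.90, -0.50 and -0.001 in knockout 1, 2, 3, 4), and for 10.8% of all tested genes.

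Pdgfrb, the growth factor receptor of pericytes, stood at 14571 and 12702 counts (wild type 1, 2) and at 6708, 22486, 19138 and 10958 (knockout 1, 2, 3, 4). Rgs5, a pericyte gene, stood at 36.6 and 41.5 counts (wild type 1, 2) and at 60.6, 776, 687 and 158 (knockout 1, 2, 3, 4), and was the only one of the 13 markers whose groups did not overlap (limma log2 2.31 ± 0.90, SE, with the set as a term; adjusted p = 0.999). Notch3 and Kcnj8, further pericyte genes, had log2 differences of -1.58 and -1.35 between knockout 1 and wild type 1, and of 1.32 and 1.39 between knockout 2 and wild type 2. The smooth muscle genes Acta2 and Myh11 differed by 0.20 ± 0.32 and 0.27 ± 0.19 (log2, SE, limma with the set as a term), and Tagln had 19833 to 71920 counts. Their part in the differences of Gucy1a3, Gucy1b3 and Prkg1 was not tested.

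**Figure D3:**
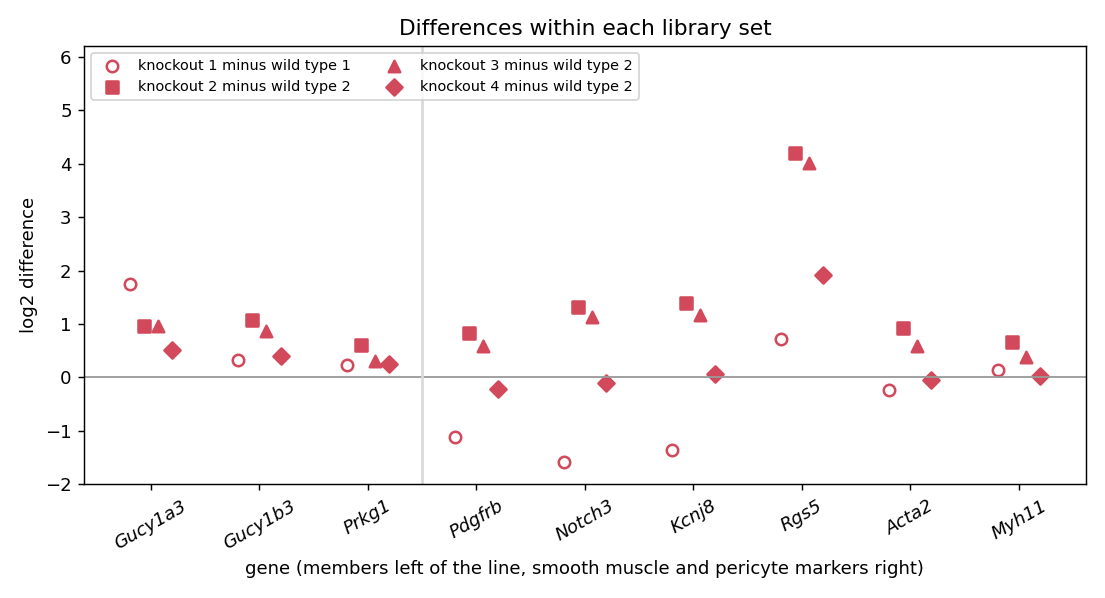
Log2 difference of each knockout-labelled library from the wild type of its set, for 3 members and 6 smooth muscle or pericyte markers; wild type 2 is shared by 3 of the 4 differences. Gucy1a3, Gucy1b3, Prkg1 and the markers Rgs5 and Myh11 are above 0 in all 4, as are 10.1% of all tested genes. Pdgfrb, Notch3, Kcnj8 and Acta2 are above 0 in knockout 2 and 3 and below 0 in knockout 1. Cnn1, a marker of the same list that is not plotted, was below 0 in all 4.

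Nos3, the endothelial synthase gene, showed no common direction. Wild type 1 held 3507 counts and wild type 2 held 1138. The knockout-labelled libraries held 2372, 1921, 1819 and 1157, all of them within the range of the wild type libraries. The log2 difference from the own wild type was -0.56 in knockout 1, 0.75 and 0.68 in knockout 2 and 3, and 0.02 in knockout 4. The log2 difference was -0.18 ± 0.49 (SE, 95% interval -1.40 to 1.03) with genotype alone and 0.07 ± 0.32 (SE) with the set as a term, so its sign also turned. The intervals leave room for a 2-fold difference either way with genotype alone. The gene (chromosome 5, 24364810 to 24384474, plus strand) shares 1040 of its 4132 exonic bases with Gm15587 and 294 with Atg9b, both on the opposite strand. Atg9b had a mean of 20.3 counts; the labels do not state whether counting used the strand, so reads of these genes may be shared.

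Because Nos3 marks endothelium, it was read beside the endothelial markers, whose median log2 difference from the own wild type was -0.65, 0.14, -0.12 and -0.62 (knockout 1, 2, 3, 4). Set against Cdh5, the endothelial cadherin gene, Nos3 had 56.4 and 61.1 counts per 1000 Cdh5 counts (wild type 1, 2), then 71.0, 86.2, 95.8 and 88.1 (knockout 1, 2, 3, 4). Set against Pecam1, it had 117 and 112 per 1000 (wild type 1, 2), then 138, 154, 164 and 156 (knockout 1, 2, 3, 4). Both ratios were higher in all 4 knockout-labelled libraries than in both wild type ones, although the counts themselves overlapped. This held for 5 of the 12 endothelial markers as the denominator, and for the other 7 the groups overlapped. Relative to the mean log2 of the 12 endothelial markers, Nos3 stood at -1.33 and -1.54 (wild type 1, 2) and at -1.23, -0.84, -0.71 and -0.93 (knockout 1, 2, 3, 4). On that scale 3.32% of all tested genes had knockout-labelled libraries entirely above wild type. These ratios were chosen after the values were seen and were not tested, and no part of the endothelial markers in the Nos3 counts was tested.

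Nos2, the inducible synthase gene (chromosome 11, 78920787 to 78960254), had the lowest mean per exonic kb of the members over the 6 libraries. Counts were 108 and 99.1 (wild type 1, 2) and 56.5, 200, 225 and 124 (knockout 1, 2, 3, 4). Knockout 1 was the lowest of all libraries and the other 3 knockout-labelled libraries the highest. The log2 difference was 0.36 ± 0.58 with genotype alone and 0.13 ± 0.47 with the set as a term (SE, limma adjusted p = 1.00 and 0.999). Macrophage and leukocyte markers had a summed level of 5241 and 33906 in wild type and of 4226 in knockout 1 and 28518 to 46322 in knockout 2 to 4. Their median log2 difference from the own wild type was -0.23, 0.29, 0.93 and -0.01 (knockout 1, 2, 3, 4), against -0.92, 1.00, 1.17 and 0.32 for Nos2. Both were highest in knockout 3 and lowest in knockout 1, but single markers did not all follow the median. In knockout 1, 3 of the 10 tested were above wild type 1 (Ptprc, Adgre1 and Marco, at 10.3 to 33.9 counts there). Cd14 and Chil3 were below the own wild type in all 4 knockout-labelled libraries (10.8% of all tested genes). Marco was above it in all 4 (log2 1.06, 0.37, 1.66 and 0.19 in knockout 1, 2, 3, 4), as were 10.1% of all tested genes. Lyz2 and Cd14, the most abundant of these markers, had 718 to 27455 and 1498 to 4672 counts. Their part in the Nos2 values was not tested. Nos1, the neuronal synthase gene, had 5.47 to 18.5 counts and did not reach the mean needed for testing.

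Among the regulators, Cav1 followed the library set. It encodes caveolin-1, the coat protein of caveolae that binds and restrains the endothelial synthase, and it was the most abundant member (chromosome 6, 17306335 to 17341452). It had 36935 and 35742 counts in wild type 1 and knockout 1, and 10443, 9622, 9003 and 11505 in wild type 2 and knockout 2, 3 and 4. Within each set the genotypes were close, at 0.968-fold in knockout 1 and 0.862-fold to 1.10-fold in knockout 2 to 4. With the set as a term the log2 difference was -0.06 ± 0.12 (SE, 95% interval -0.35 to 0.24), which leaves no room for a 2-fold difference in this fit; with genotype alone it was -0.52 ± 0.74 (SE). The caveolar coat gene Cavin1, listed as Ptrf, split in the same way, with 28945 and 25918 counts in the first set and 12947 to 14680 in the second.

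Ddah1 and Ddah2 encode the dimethylarginine dimethylaminohydrolases, which clear methylated arginines that inhibit the synthases. Ddah1 (chromosome 3, 145758675 to 145894277) stood at 7484 and 4407 counts (wild type 1, 2) and at 6019, 3342, 3932 and 3979 (knockout 1, 2, 3, 4). Ddah2 (chromosome 17, 35059035 to 35062095) stood at 974 and 1310 counts (wild type 1, 2) and at 634, 1293, 1266 and 1183 (knockout 1, 2, 3, 4). Both were lower in each knockout-labelled library than in the wild type of its set, which held for 10.8% of all tested genes and for 2 of the 10 members. The step was small for Ddah1, at 0.758-fold to 0.903-fold, and for Ddah2 it was 0.651-fold in knockout 1 and 0.903-fold to 0.987-fold in the others. With the set as a term the log2 differences were -0.27 ± 0.10 (95% interval -0.51 to -0.03) for Ddah1 and -0.29 ± 0.14 (95% interval -0.64 to 0.06) for Ddah2 (SE, limma adjusted p = 0.999 for both). Per exonic kb, Ddah1 stood at 3.07 and 3.80 times Ddah2 in the first set and at 1.03 to 1.35 times in the second.

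**Figure D4:**
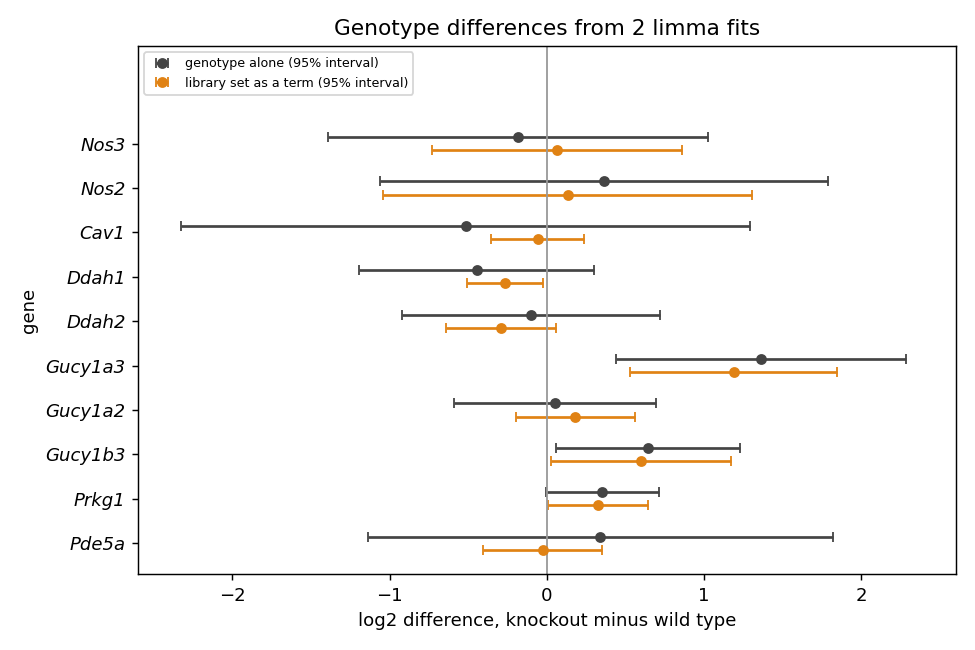
Log2 difference between knockout-labelled and wild type libraries for each gene, from limma with genotype alone (black) or after adding the library set (orange), with 95% intervals. Adding the set narrows the intervals of Cav1 and Pde5a most; Gucy1a3 stands highest in both fits, at 1.36 and 1.19.

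Per exonic kb, the mean over the 6 libraries ordered the members as Cav1 (5481), Ddah1 (1220), Ddah2 (697), Nos3 (481), Pde5a (171), Gucy1b3 (151), Prkg1 (106), Gucy1a3 (57.1), Gucy1a2 (54.4) and Nos2 (30.7 normalized counts per kb). Neighbours in this order changed places between libraries. Nos3 was above Ddah2 in wild type 1 and knockout 1 and below it in the others. Gucy1a3 was below Gucy1a2 in wild type 1 and knockout 1 and above it in the other 4, and Pde5a was below Gucy1b3 in wild type 1 and knockout 1, 2 and 3. Nos2 was above Gucy1a3 in wild type 1 and above Gucy1a2 in knockout 3. Cav1 was highest and Ddah1 second in all 6 libraries.

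The rest of the pathway was read from lists by known role. Of 57 further genes in 8 lists, 47 were tested. Limma, edgeR and DESeq2 called 0 of them with genotype alone and 0 after adding the library set. At an unadjusted p under 0.05 with genotype alone these were 0, 0 and 1 gene (Rgs2, a brake on the receptors of contracting agonists). Of all tested genes, 0.939%, 0.998% and 1.43% passed there. With the set as a term 1 gene passed in each tool, against 3.51%, 3.51% and 3.66% of all tested genes. In all 3 tools it was Pde1a, a phosphodiesterase that hydrolyses cGMP, at 0.40 ± 0.16 (log2, SE, limma adjusted p = 0.999). Their median log2 difference with the set as a term was -0.03, with 21 above and 26 below 0, beside 0.10 for the 10 members, with 6 above and 4 below 0, and 0.00 for all tested genes. In 0 of the 47 were all knockout-labelled libraries above both wild type libraries (2.36% of all tested genes). The opposite held for 1 of them, Itpr1, and for 2.32% of all tested genes. Itpr1 encodes the calcium release channel that protein kinase G restrains through Irag1 (listed as Mrvi1). It stood at 4727 and 4682 counts (wild type 1, 2) and at 3917 to 4635 in the others. Each knockout-labelled library was above the wild type of its set in 4 genes (Slc7a2, Pts, Pde1a and Pde9a), against 10.1% of all tested genes. Each was below it in 5 (Dynll1, Ass1, Itpr1, Kcnma1 and Pde10a), against 10.8%.

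Among the synthase partners, the chaperone gene Hsp90ab1 was the most abundant, and its log2 difference with the set as a term was -0.07 ± 0.11 (SE, limma). Nostrin, which encodes a trafficking partner of the endothelial synthase, stood at 203 and 278 counts (wild type 1, 2) and at 167, 485, 483 and 377 (knockout 1, 2, 3, 4). In the arginine supply, the transporter gene Slc7a1 and the arginine methyltransferase gene Prmt1 differed by -0.03 ± 0.08 and -0.21 ± 0.13. The arginase gene Arg1, whose enzyme competes for arginine, had 3.14 and 21.6 counts in the first set and 3936 to 5849 in the second, where the macrophage gene Chil3 had 33.5 and 28.8 against 2835 to 5020. In tetrahydrobiopterin synthesis, which makes the synthase cofactor, Gch1, the gene of the first enzyme, stood at 847 and 778 counts (wild type 1, 2) and at 610 to 848 in the others, and Qdpr and Spr differed by -0.17 ± 0.11 and -0.01 ± 0.09 (log2, SE, limma with the set as a term).

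Downstream, the cytoskeletal kinase substrate gene Vasp and the myosin phosphatase gene Ppp1r12a differed by -0.05 ± 0.13 and 0.11 ± 0.08 (log2, SE, limma with the set as a term). The other phosphodiesterase genes that were most abundant, Pde3a and Pde3b, differed by 0.54 ± 0.36 and -0.14 ± 0.17. Pde3a, whose enzyme is inhibited by cGMP, stood at 1876 and 3367 counts (wild type 1, 2) and at 2467, 8050, 5421 and 3310 (knockout 1, 2, 3, 4), again highest in knockout 2 and 3. Rgs2 stood at 415 and 543 counts (wild type 1, 2) and at 621, 1352, 1240 and 540 (knockout 1, 2, 3, 4), with the same order among the knockout-labelled libraries of the second set.

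**Figure D5:**
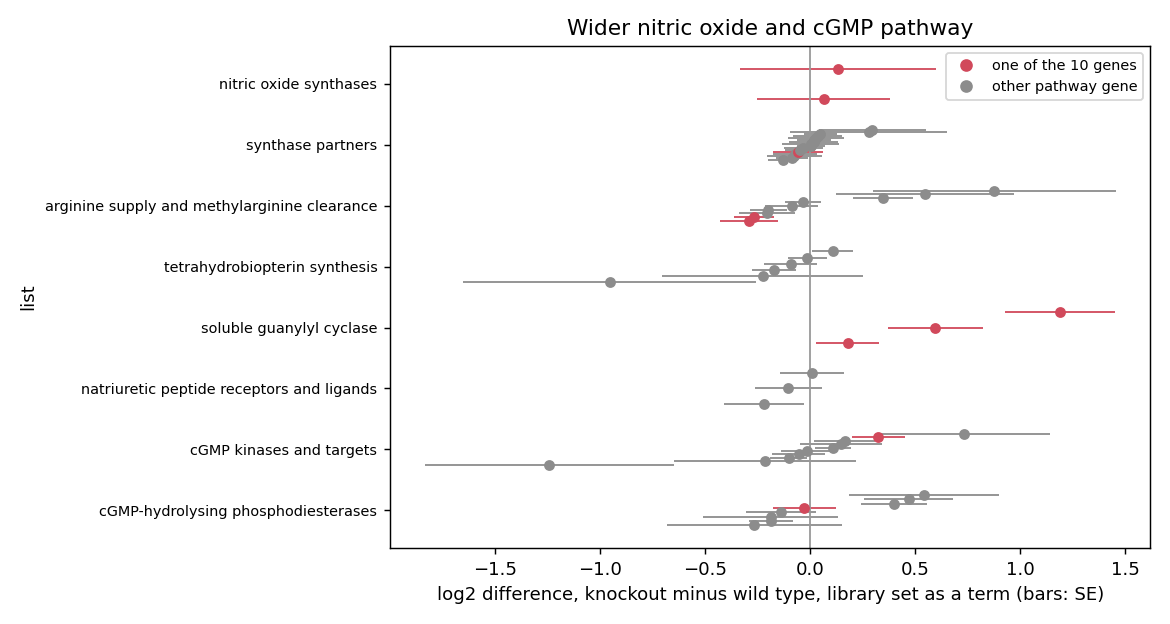
Log2 difference with the library set as a term, with SE, for the 57 tested genes of the pathway by list; red marks the 10 genes described here and grey the 47 others. Gucy1a3 and Gucy1b3 lie at 1.19 and 0.60, and the grey points reach from Kcnma1 at -1.24 to Arg1 at 0.88.

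The genes whose log2 levels were most like those of Gucy1a3 and Nos3 over the 6 libraries were sought among 12754 other genes with a mean of at least 50 counts. For Gucy1a3 they were Lgr4, Zbtb43, Tbc1d15, Il17rc and Avpr1a, at Pearson r from 0.981 to 0.986. For Nos3 they were Baiap2, Ctsb, Stk25, Tbc1d1 and Lima1, at r from 0.994 to 0.997. After centring within each library set the closest to Gucy1a3 were Mboat7, Slc44a3, Il17rc, Zc2hc1a and Birc2 (r 0.997 to 0.999), and the closest to Nos3 were Nrros, Nudt4, Acad12, Tmem43 and Car2 (r 0.994 to 0.997). Only Il17rc appeared in both lists for Gucy1a3 and no gene in both for Nos3. The libraries fall into 2 sets and the genes share depth and scaling, so these values describe the 6 libraries only.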

How the data were processed

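Per the series design text, mRNA of the 6 libraries was selected with oligo-dT and read single-end to 100 nt. The deposited signal is a normalized count per gene, and its values behave as whole reads scaled by 1 factor per library. Per the submitters' processing notes, Trimmomatic 0.36, STAR 2.6.0c, featureCounts of Subread 1.6.1 and GRCm38.p6 were used; the series design text names Trimmomatic 0.32, STAR 2.4.2a, HTSeq and DESeq2 1.10.1. The sources used here do not settle which set made it. All values (100%, tolerance 1e-06 of a read) were whole multiples of what 1 read was worth in their library, so whole reads were recovered.

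The main test was limma 3.58.1 (R 4.3.3; trended eBayes) on log2(value + 1), a scale that understates low genes, over 15229 genes averaging 10 or more; adjusted p-values are Benjamini-Hochberg, called at 0.05. edgeR 4.0.16 (quasi-likelihood) and DESeq2 1.42.0 were run on the recovered reads. The fits were also run on simulated counts with known changes and the same dispersion for every gene, which these libraries need not meet. No 2 libraries of a genotype agreed within sampling noise.

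The members and lists were chosen with earlier results of these data known. Named were all members and Zmpste24, called genes and the 2 most abundant of each pathway and marker list, 5 preset markers, and the 5 genes most like Nos3 and Gucy1a3; 31 more were named after their values were seen, and 1 gene of the rule is not reported here. Alternatives were other pseudocounts, filters, scalings, weights, tools and terms, and each library left out.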

Additional observations from a re-analysis of the deposited data

Results flagged for a closer look

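In 71 genes named in the report, the 4 knockout-labelled libraries were checked for 1 value far from the other 3. It was found in 13 genes, and in all 13 the library was knockout 1, the only knockout-labelled library of the first set. The cutoff passes about 1 in 20 genes by chance when the 4 values are independent and come from 1 distribution. Here knockout 1 belongs to another library set than the other 3, and 31 of the 71 genes were picked with their counts already known. The 13 genes therefore cannot be compared with that rate.

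Cav1 had 35742 counts in knockout 1 against 9003 to 11505 in the other 3. Ddah2 had 634 against 1183 to 1293. Zmpste24 had 5079 against 3599 to 3764, and Cavin1, listed as Ptrf, 25918 against 12947 to 14680. Of the other pathway genes, Spr had 1226 against 837 to 882, and Pts, a tetrahydrobiopterin synthesis gene, 490 against 427 to 435. Dynll1, which encodes a dynein light chain, had 4962 against 2935 to 3270, and the argininosuccinate synthase gene Ass1 had 1687 against 406 to 425. Among the markers, Msln had 42001 against 4928 to 9087 and Myh11 3418 against 496 to 772. Cnn1, a smooth muscle gene, had 5503 against 610 to 1140, Vwf 2939 against 819 to 971 and Reln 4787 against 1176 to 1506. In each of these genes wild type 1 also lay on the same side of wild type 2.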

How the results depend on the processing

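Gucy1a3, Gucy1b3, Prkg1 and Ddah1 kept their direction in all 34 alternatives, with log2 differences of 0.74 to 1.98, 0.33 to 0.81, 0.24 to 0.42 and -0.83 to -0.07. Of the 34, 12 leave a library out of the fits with the set as a term and were chosen after seeing the data. The 34 are not separate checks. Those of the 12 without wild type 1 or knockout 1 repeat the second set alone. Those without wild type 2 compare only knockout 1 with wild type 1. In each knockout-labelled library these genes lay on the same side of the own wild type, which fixed their direction in such fits beforehand. Limma with genotype alone called 1 gene. The count was 2 with a pseudocount of 5, 2 with array weights, 7 by DESeq2, 0 in the second library set alone, and 0 to 2 without single libraries. Adding the library set gave 2 by edgeR and 50 by DESeq2. Leaving out wild type 1, wild type 2 and knockout 1, 2, 3 and 4 in turn, that DESeq2 fit called 27, 73, 28, 41, 11 and 144 genes, and the limma fit 0 or 1. Members called were 0, but 1 (Gucy1a3) by DESeq2 with the set, and 0 or 1 there without single libraries; of the other pathway genes, 0 were called, or 1 (Rgs2) in that fit without knockout 4.

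With the replicate block (the number in the title, shared by libraries 1 and 2) limma called 0 genes, and Nos3 and Pde5a turned to 0.095 and -0.048. No label says that a number marks a shared animal or day. Deviations from the genotype mean correlated at 0.841 for number 1 and 0.562 for number 2, and wild type 2 correlated better with knockout 3 (0.668). The deviations of the 2 wild type libraries mirror each other, so wild type 1 with knockout 2 gave -0.562. These values thus follow the library sets and cannot show whether the numbers pair libraries.

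The remaining 6 members changed sign under some settings, none of them called there. With the set added, Nos3 was 0.065, 0.070 and 0.067 and Pde5a -0.027, -0.016 and -0.022 by limma, edgeR and DESeq2; in the second set alone they were 0.48 and -0.13. Leaving out single libraries with genotype alone, Nos3 ranged from -0.99 to 0.63, Pde5a from -0.47 to 1.15, Cav1 from -1.43 to 0.40, Ddah2 from -0.32 to 0.14 and Gucy1a2 from -0.30 to 0.41. Leaving them out with the set added, Nos3 turned to 0.15, 0.17, 0.48 and 0.52, Pde5a to -0.13, -0.11, -0.10 and -0.096, Gucy1a2 without wild type 2 to -0.027 and -0.031, and Nos2 to -0.93 and -0.92 without wild type 2 and -0.010 and -0.015 without knockout 3 (DESeq2 and limma). In the fits with the set added, leaving out wild type 2 compared only knockout 1 with wild type 1. Leaving out wild type 1 or knockout 1 there compared only the second set. Array weights gave 0.15 for Ddah2 and -0.16 for Gucy1a2. The cause was not tested. The members with the fewest counts on average had 55 to 262 (Nos2), 235 to 425 (Gucy1a2) and 117 to 664 (Gucy1a3) reads per library.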

Other observations

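The genes around the receptor pair on chromosome 3 were read beside it, a choice made after the values were seen. Within 500 kb of either side the annotation holds 5 other protein-coding genes. Tdo2, which encodes tryptophan 2,3-dioxygenase, stood at 2.09 and 127 counts (wild type 1, 2) and at 12.3, 587, 346 and 216 (knockout 1, 2, 3, 4). Each knockout-labelled library was thus above the wild type of its set (log2 1.72 ± 0.45, SE, limma with the set as a term). This held for 10.1% of all tested genes. In the first set Tdo2 rested on few reads, as 1 read was worth 1.05 counts in wild type 1 and 1.03 in knockout 1. A link of these neighbours to the receptor pair was not tested. Ctso, the cathepsin O gene, stood at 771 and 1872 counts (wild type 1, 2) and at 995, 2269, 1930 and 2044 (knockout 1, 2, 3, 4) (0.24 ± 0.10). Map9, a microtubule-associated protein gene on the other side of the pair, stood at 410 and 394 counts (wild type 1, 2) and at 469, 319, 319 and 385 (knockout 1, 2, 3, 4) (-0.05 ± 0.16). Asic5 and Npy2r had at most 2.05 and 2.02 counts.

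The natriuretic peptide route makes cGMP through receptors in the cell membrane rather than through nitric oxide. Npr2 and Npr3, its most abundant receptor genes here, differed by -0.10 ± 0.16 and 0.01 ± 0.15, and Npr1 by -0.22 ± 0.19 (log2, SE, limma with the set as a term). Npr3, which encodes the clearance receptor, had 1000 and 980 counts in wild type 1 and knockout 1 and 2187 to 2977 in the other 4 libraries.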
